A study of Mus musculus with 703 samples.

Results

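Leptin (Lep, ENSMUSG00000059201) and neuronatin (Nnat, ENSMUSG00000067786) are the 2 genes described here, of 19088 genes measured in the gastrocnemius muscle of mice. They were chosen by a measured value: in untreated animals both had higher levels on the 44% fat diet than on the 10% fat diet in each of 20 strains. That diet contrast in untreated animals is therefore given as a description, with no test. The diet difference was tested in the animals given metformin, which the choice did not use, and the tests on sex, strain and metformin rest on contrasts that played no part in it.

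The series holds 703 libraries of polyadenylated RNA, 1 for each animal, from F1 mice of 20 crosses between Collaborative Cross lines (CC-RIX), which are called strains below. Both diets, of 10% and 44% fat, are labelled as containing fiber. Untreated animals number 234 on 10% fat and 235 on 44% fat, 236 of them females and 233 males, with the sexes nearly even on either diet. Animals given metformin number 57 females and 59 males on 10% fat, and 59 females and 59 males on 44% fat. Metformin, a glucose-lowering drug, was in the drinking water at 5 mg/mL. The labels' protocol gives cohorts of 6 and 12 months, with metformin only in the older one, and the label of a library does not give its age. Untreated animals can thus belong to either cohort, so metformin and age cannot be told apart. No animal carries a transgene or a targeted allele, and the animals of a strain are genetically alike apart from sex.

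Leptin is a hormone that white fat cells secrete in step with their lipid stores. It acts through its receptor Lepr, most of all in the hypothalamus, where Jak2 and Stat3 carry the signal and Socs3 and Ptpn1 dampen it, and mice without leptin overeat and become obese. Neuronatin is a small membrane protein of the endoplasmic reticulum, related in sequence to phospholamban, an inhibitor of the calcium pump of muscle. Nnat is imprinted, with only the paternal copy active, and is transcribed in brain, in pancreatic islets and in fat. Neither gene is a classical product of muscle fibers, while fat cells lie between and around the fibers of a dissected muscle.

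Lep lies on chromosome 6 from 29060220 to 29073877 on the plus strand (GRCm38). Nnat lies on chromosome 2 from 157560078 to 157562522 on the plus strand, inside the span of Blcap (157556362 to 157571274, minus strand). Of the 1829 bases of its exons, 0 are shared with exons of Blcap in the annotation. The promoter windows, 250 bases before to 50 bases after the start of transcription, are shown because both genes were chosen for a shared response. They come from RefSeq on GRCm38.p6, 5′ to 3′, with matches to the motifs searched in capitals.
Lep, chr6:29059971-29060270, plus strand: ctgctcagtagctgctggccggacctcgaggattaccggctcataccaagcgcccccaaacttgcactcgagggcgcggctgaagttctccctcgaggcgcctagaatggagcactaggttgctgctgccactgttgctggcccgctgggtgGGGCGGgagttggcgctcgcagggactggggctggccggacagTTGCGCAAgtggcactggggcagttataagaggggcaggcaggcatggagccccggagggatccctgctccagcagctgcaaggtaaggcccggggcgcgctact
Nnat, chr2:157559828-157560127, plus strand: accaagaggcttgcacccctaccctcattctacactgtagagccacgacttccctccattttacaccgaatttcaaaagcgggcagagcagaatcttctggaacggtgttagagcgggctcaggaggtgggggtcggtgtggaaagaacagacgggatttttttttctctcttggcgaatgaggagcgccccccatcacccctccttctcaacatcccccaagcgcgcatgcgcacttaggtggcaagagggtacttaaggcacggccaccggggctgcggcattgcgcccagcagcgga
The Lep window holds a GC box, GGGCGG, that begins 98 bases before the start, and the letters TTGCGCAA, a match to the C/EBP pattern TTGCNNAA, that begin 55 bases before it. C/EBP factors are regulators of fat cell genes. The Nnat window holds neither, and neither window holds the TATA box TATAAA, the E-box CACGTG or the PPAR direct repeat, on either strand. Among 32851 promoter windows of the same length, 35.7% held the GC box, 10.8% the C/EBP pattern, 13.6% the TATA box, 7.15% the E-box and 0.0396% the PPAR repeat. The Lep window had 66% GC and 19 CpG dinucleotides, and the Nnat window had 57.3% GC and 17, against medians of 52.7% and 7 over all windows. Only exact matches to each pattern were searched, so near ones, such as tataag in the Lep window, are not counted. The matches describe the letters of these windows and do not show binding.

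Libraries held 27.4 M to 96.1 M counts, with a median of 47.9 M. Lep had at least 13 counts in every library and a median of 281, and Nnat had at least 5 and a median of 205. Levels are given in CPM, counts scaled to a common library total. The summed CPM of 6 muscle genes ran from 70990 to 209489, so the muscle markers were high in every library, and the summed CPM of 15 fat cell genes, among them Adipoq, Plin1, Cidec and Fabp4, ran from 78.5 to 2508. Sequencing identifiers fell into a lower range of 544 libraries and an upper range of 159. In 15 libraries the level of Xist went against the labelled sex, 4 had a profile closest to another strain, and 602 had summed liver transcripts of at most 10 times the median of 2.53 CPM, with up to 7145 CPM in the others. 1 library stood apart for both genes: a male of (CC002/UncJ x CC043/GeniUncJ)F1 on 10% fat with metformin had 100.9 CPM of Lep, 86.1 CPM of Nnat and a fat cell sum of 2508 CPM, where the next highest values in the series were 57.2, 34.8 and 1417. Where a test was also run without this male and its value moved, that value is given beside it.

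Lep was at low levels in every group, and higher on 44% fat in each of them. In untreated females Lep ran from 0.752 to 21.6 CPM on 10% fat with a median of 4.40, and from 1.18 to 57.2 on 44% fat with a median of 8.79. In untreated males it ran from 0.296 to 25.1 CPM on 10% fat with a median of 4.09, and from 0.400 to 52.5 on 44% fat with a median of 9.86. The ranges of the diets overlapped in both sexes, and the medians of the sexes lay close to each other on either diet. Females given metformin ran from 0.558 to 17.1 CPM on 10% fat with a median of 4.19, and from 1.62 to 30.8 on 44% fat with a median of 8.14. Males given metformin ran from 0.519 to 100.9 CPM on 10% fat with a median of 3.32, and from 0.798 to 52.01 on 44% fat with a median of 8.48.

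Nnat had another pattern across the groups, with females on 10% fat well below the rest. In untreated females Nnat ran from 0.246 to 23.9 CPM on 10% fat with a median of 1.29, and from 0.699 to 34.8 on 44% fat with a median of 6.83. In untreated males it ran from 0.473 to 26.4 CPM on 10% fat with a median of 3.81, and from 1.13 to 21.9 on 44% fat with a median of 6.26. The sexes were thus apart on 10% fat and close together on 44% fat. Among animals given metformin the median was 1.86 CPM in females on 10% fat (range 0.280 to 6.94) and 6.22 on 44% fat (0.714 to 17.9). In males given metformin it was 2.73 CPM on 10% fat (0.107 to 86.1) and 6.09 on 44% fat (1.19 to 15.6). Per kilobase of exon and with the sexes pooled, the untreated median on 10% fat was 1.23 CPM per kilobase for Lep and 1.30 for Nnat. On 44% fat it was 2.71 and 3.62. By sex, untreated females had 1.31 for Lep and 0.707 for Nnat on 10% fat, and 2.62 and 3.73 on 44% fat. Untreated males had 1.22 and 2.08 on 10% fat, and 2.94 and 3.42 on 44% fat.

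**Figure D1:**
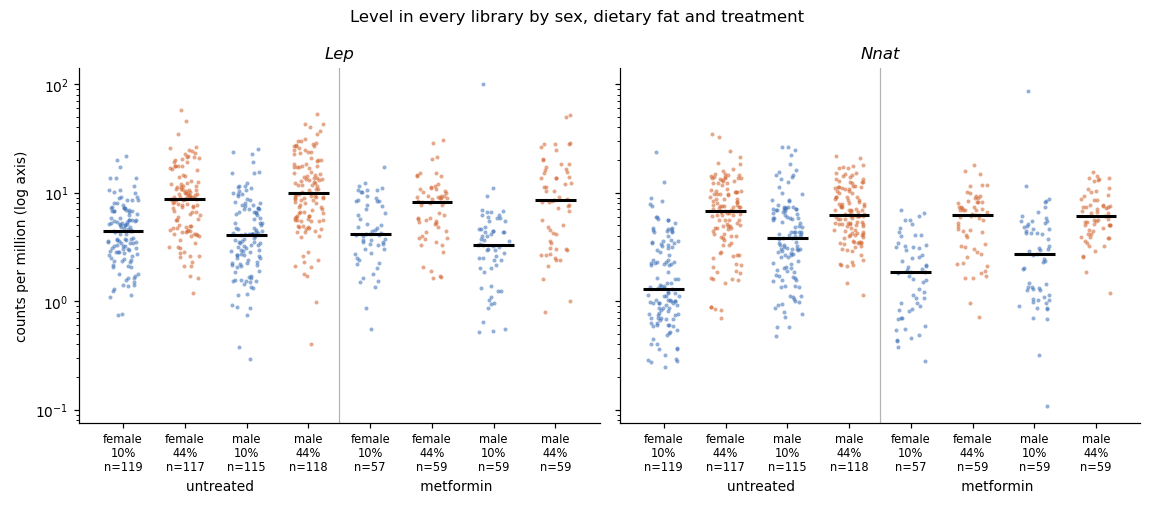
CPM of Lep (left) and Nnat (right) in each of 703 libraries on a log axis, by sex and dietary fat, with untreated animals left and animals given metformin right of the line. Points are libraries and bars are medians. Median Nnat in untreated females was 1.29 CPM on 10% fat and 6.83 on 44% fat, and in untreated males 3.81 and 6.26.

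The contrast that chose the genes asked what the high-fat diet went with in untreated animals. The log2 fold change of 44% over 10% fat was 1.19 ± 0.08 (SE) for Lep and 1.18 ± 0.09 for Nnat, with strain, sex and identifier range in the model, and both values belong to the choice. Of 16384 genes, 3320 (20.3%) were called in that contrast, 10.1% higher and 10.1% lower on 44% fat, and 91 (0.555%) had a positive difference in 20 strains. Symbols of clones and predicted genes were left out of the ranking that follows. Among the remaining genes of at least 1 CPM inside that limit, Lep and Nnat had the highest fold changes. Among all 16384 genes, inside the limit or not, they were in places 6 and 7 from the highest. Next came Rab15 at 1.04, Fabp3, a fatty acid carrier of muscle, at 0.87, and Acot1, a fatty acyl-CoA thioesterase, at 0.81. Just outside it, with a positive difference in 19 strains, were Npr3 (0.76), Tusc5 (0.54) and Tmem132b (0.43).

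The sign in the 20th strain is not firm. In (CC009/UncJ x CC013/GeniUncJ)F1 the untreated animals on 10% fat had 7.27, 15.4, 17.1 and 19.3 CPM of Lep, and the 6 on 44% fat ran from 8.95 to 23.5. Nnat in these animals was 3.44, 7.02, 8.50 and 12.6 CPM on 10% fat and 3.45 to 14.9 on 44% fat. The diets overlapped, with 1 animal on 44% fat above the 10% fat range for each gene. The mean log2 difference, averaged over the sexes, was 0.01 for Lep and 0.01 for Nnat on TMM-scaled CPM, the scaling of the fit, and -0.03 and -0.04 on CPM of the library total. By library totals, then, both genes were higher on 44% fat in 19 strains and not in 20. On the scale of library totals the next lowest strain had 0.41 for Lep and 0.26 for Nnat, and the highest, (CC019/TauUncJ x CC042/GeniUncJ)F1 for either gene, had 2.53 and 2.70.

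Strains are described in the order of their mean Lep level in untreated animals, adjusted for sex, diet and identifier range, from the lowest. In (CC011/UncJ x CC027/GeniUncJ)F1, Lep ran from 0.375 to 5.48 CPM on 10% fat with a median of 1.43, and from 1.64 to 42.7 on 44% fat with a median of 6.88. For Nnat the range was 0.288 to 7.04 CPM on 10% fat with a median of 1.16, and 2.88 to 15.1 CPM on 44% fat with a median of 4.95. Lep on 10% fat was lower here than in any other strain by its median, and 7 of 12 animals on 44% fat lay above the 10% fat range for it. In (CC043/GeniUncJ x CC042/GeniUncJ)F1, Lep ran from 0.872 to 5.23 CPM on 10% fat with a median of 2.07, and from 2.07 to 46.04 on 44% fat with a median of 5.73. The same animals had 0.364 to 3.94 CPM of Nnat on 10% fat (median 0.766) and 2.14 to 7.45 CPM on 44% fat (median 4.09). Both genes were low on 10% fat in this strain. In (CC004/TauUncJ x CC019/TauUncJ)F1, Lep ran from 2.24 to 4.65 CPM on 10% fat with a median of 3.26, and from 2.12 to 10.6 on 44% fat with a median of 4.56. Levels of Nnat went from 0.246 to 2.65 CPM on 10% fat, with a median of 0.617, and from 0.699 to 12.6 on 44% fat, with a median of 3.69. This strain had the lowest adjusted Nnat level, and the lowest Nnat median on either diet.

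In (CC011/UncJ x CC005/TauUncJ)F1, Lep ran from 1.39 to 13.6 CPM on 10% fat with a median of 2.77, and from 1.18 to 12.7 on 44% fat with a median of 6.03. Nnat there ran from 0.770 to 18.4 CPM with a median of 2.65 on 10% fat, and from 2.83 to 13.6 with a median of 6.66 on 44% fat. The diets overlapped for both genes, with the highest 10% fat animal above every animal on 44% fat. In (CC075/UncJ x CC042/GeniUncJ)F1, Lep ran from 1.32 to 6.75 CPM on 10% fat with a median of 3.24, and from 2.09 to 23.6 on 44% fat with a median of 5.70. For Nnat the range was 0.369 to 4.96 CPM on 10% fat with a median of 1.26, and 0.883 to 8.03 CPM on 44% fat with a median of 4.87. On 44% fat 4 of 12 animals lay above the 10% fat range for Lep and 6 of 12 for Nnat. In (CC043/GeniUncJ x CC011/UncJ)F1, Lep ran from 0.738 to 10.6 CPM on 10% fat with a median of 2.81, and from 2.81 to 10.8 on 44% fat with a median of 6.90. The same animals had 0.577 to 4.68 CPM of Nnat on 10% fat (median 2.84) and 2.18 to 9.81 CPM on 44% fat (median 6.68). For Nnat 9 of the 12 animals on 44% fat lay above the 10% fat range, and for Lep 1 did. In (CC042/GeniUncJ x CC040/TauUncJ)F1, Lep ran from 1.79 to 7.10 CPM on 10% fat with a median of 3.55, and from 2.60 to 13.2 on 44% fat with a median of 4.67. Levels of Nnat went from 0.632 to 7.41 CPM on 10% fat, with a median of 1.29, and from 0.848 to 6.90 on 44% fat, with a median of 4.14. On 44% fat 3 of 12 animals lay above the 10% fat range for Lep, and no animal did for Nnat.

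In (CC019/TauUncJ x CC075/UncJ)F1, Lep ran from 1.17 to 11.5 CPM on 10% fat with a median of 3.63, and from 4.19 to 17.4 on 44% fat with a median of 8.13. Nnat there ran from 0.473 to 13.8 CPM with a median of 2.45 on 10% fat, and from 1.61 to 9.20 with a median of 4.81 on 44% fat. No animal on 44% fat lay above the highest Nnat value on 10% fat. In (CC051/TauUncJ x CC019/TauUncJ)F1, Lep ran from 1.63 to 6.78 CPM on 10% fat with a median of 2.65, and from 2.30 to 37.2 on 44% fat with a median of 9.48. For Nnat the range was 0.317 to 3.80 CPM on 10% fat with a median of 1.32, and 2.49 to 14.9 CPM on 44% fat with a median of 8.15. Here 8 of 12 animals on 44% fat lay above the 10% fat range for Lep, and 10 of 12 for Nnat. In (CC019/TauUncJ x CC042/GeniUncJ)F1, Lep ran from 0.296 to 7.99 CPM on 10% fat with a median of 3.07, and from 7.60 to 34.4 on 44% fat with a median of 16.03. The same animals had 0.607 to 9.99 CPM of Nnat on 10% fat (median 1.34) and 6.12 to 20.6 CPM on 44% fat (median 12.5). The ratio of the medians was higher in this strain than in any other, for either gene, and 11 of 12 animals on 44% fat lay above the 10% fat range for Lep. In (CC042/GeniUncJ x CC060/UncJ)F1, Lep ran from 1.28 to 6.60 CPM on 10% fat with a median of 3.14, and from 7.91 to 17.6 on 44% fat with a median of 12.3. Levels of Nnat went from 0.991 to 11.2 CPM on 10% fat, with a median of 2.78, and from 2.09 to 13.9 on 44% fat, with a median of 9.87. Lep did not overlap between the diets in these animals, and Nnat did, and the share of all genes without overlap is not given.

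In (CC012/GeniUncJ x CC002/UncJ)F1, Lep ran from 1.42 to 9.76 CPM on 10% fat with a median of 5.22, and from 4.004 to 13.3 on 44% fat with a median of 7.80. Nnat there ran from 0.745 to 8.48 CPM with a median of 2.22 on 10% fat, and from 2.65 to 14.8 with a median of 7.05 on 44% fat. On 44% fat 3 of 12 animals lay above the 10% fat range for Lep, and 5 of 12 for Nnat. In (CC001/UncJ x CC042/GeniUncJ)F1, Lep ran from 1.56 to 13.8 CPM on 10% fat with a median of 4.14, and from 1.70 to 24.7 on 44% fat with a median of 13.5. For Nnat the range was 0.274 to 7.40 CPM on 10% fat with a median of 3.21, and 2.17 to 15.7 CPM on 44% fat with a median of 7.74. The lowest animals of either diet had similar Lep levels. In (CC051/TauUncJ x CC060/UncJ)F1, Lep ran from 2.50 to 9.91 CPM on 10% fat with a median of 6.51, and from 2.10 to 52.5 on 44% fat with a median of 12.2. The same animals had 0.959 to 8.42 CPM of Nnat on 10% fat (median 3.42) and 1.63 to 18.4 CPM on 44% fat (median 7.49). The highest Lep value on 44% fat stood far above the 10% fat range. In (CC002/UncJ x CC043/GeniUncJ)F1, Lep ran from 2.86 to 11.6 CPM on 10% fat with a median of 4.87, and from 3.11 to 24 on 44% fat with a median of 12.3. Levels of Nnat went from 3.10 to 15.4 CPM on 10% fat, with a median of 4.45, and from 2.80 to 12.95 on 44% fat, with a median of 5.36. Lep was higher on 44% fat by its median, while Nnat medians lay close together.

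In (CC024/GeniUncJ x CC002/UncJ)F1, Lep ran from 2.67 to 25.1 CPM on 10% fat with a median of 9.0, and from 4.41 to 23.2 on 44% fat with a median of 11.3. Nnat there ran from 0.401 to 22.2 CPM with a median of 4.30 on 10% fat, and from 1.59 to 17.8 with a median of 6.87 on 44% fat. No animal on 44% fat lay above the 10% fat range for either gene. In (CC002/UncJ x CC075/UncJ)F1, Lep ran from 4.27 to 21.6 CPM on 10% fat with a median of 7.25, and from 0.400 to 57.2 on 44% fat with a median of 18.4. For Nnat the range was 2.26 to 26.3 CPM on 10% fat with a median of 5.82, and 1.47 to 34.8 CPM on 44% fat with a median of 12.1. The lowest Lep value in this strain was on 44% fat, and so was the highest. In (CC030/GeniUncJ x CC002/UncJ)F1, Lep ran from 3.47 to 23.6 CPM on 10% fat with a median of 7.51, and from 8.65 to 28.4 on 44% fat with a median of 13.8. The same animals had 1.02 to 26.4 CPM of Nnat on 10% fat (median 7.02) and 6.91 to 21.9 CPM on 44% fat (median 14.2). Nnat on 44% fat was higher here by its median than in any other strain. In (CC051/TauUncJ x CC059/TauUncJ)F1, Lep ran from 3.53 to 15.2 CPM on 10% fat with a median of 7.32, and from 4.93 to 42.6 on 44% fat with a median of 20.1. Levels of Nnat went from 1.40 to 9.71 CPM on 10% fat, with a median of 3.09, and from 4.11 to 16.9 on 44% fat, with a median of 10.6. This strain had the highest median of Lep on 44% fat.

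**Figure D2:**
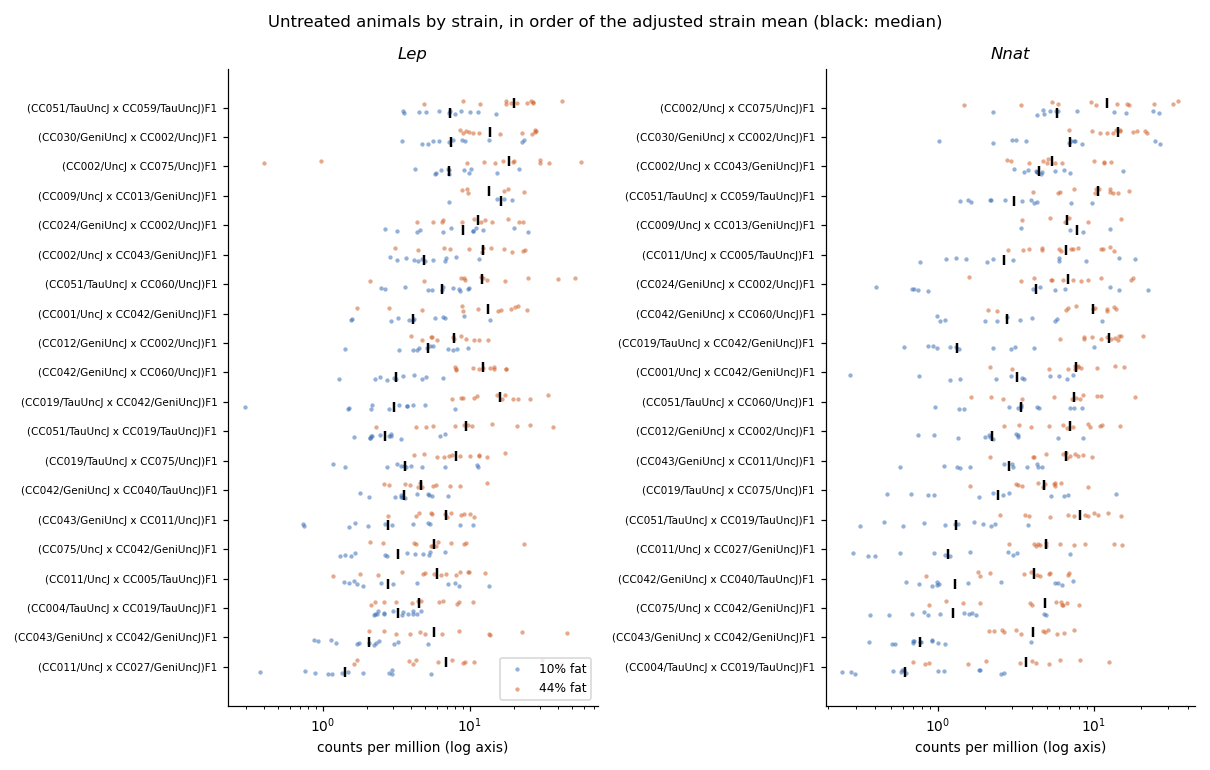
CPM of Lep (left) and Nnat (right) in each untreated animal on a log axis, by strain (vertical axis, in order of the adjusted strain mean) and diet. Points are animals and black ticks are medians. Median Lep on 44% fat ran from 4.56 CPM in (CC004/TauUncJ x CC019/TauUncJ)F1 to 20.1 CPM in (CC051/TauUncJ x CC059/TauUncJ)F1.

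Strain was tested as a whole in untreated animals. It was called for both genes by edgeR's quasi-likelihood F test (adjusted p = 2.4e-22 for Lep and 2.0e-30 for Nnat), where 95.4% of 16384 genes were called, so the call sets neither gene apart. On the log2 CPM scale strain took 16.7% of the variance of Lep and 18.9% of that of Nnat (omega squared), and diet took 20.7% and 23.1%. Sex took 0.00048% of the variance of Lep and 5.15% of that of Nnat. The adjusted mean was 3.31-fold higher in the highest strain than in the lowest for Lep, and 5.80-fold for Nnat. Animals within a strain spread by a residual SD of 0.95 log2 units for Lep and 1.02 for Nnat. Of the 19 gaps between neighbours in the order, 19 for Lep and 18 for Nnat were smaller than 2 standard errors of the difference of the adjusted means. The exception was the gap of 0.66 ± 0.29 (SE) in Nnat between (CC002/UncJ x CC043/GeniUncJ)F1 and (CC030/GeniUncJ x CC002/UncJ)F1. Neighbours were paired by their measured values, so these gaps were not tested. In animals given metformin the strain term was called again (edgeR, adjusted p = 4.0e-15 and 3.2e-08, background 89.5%), also without the male with the highest fat cell sum (9.7e-20 and 4.6e-07). In the upper identifier range alone the strain call on Nnat was lost (adjusted p = 0.092).

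Counted from the lowest of 20, the 5 strains that carry the line CC002/UncJ ranked 12, 15, 16, 18 and 19 for Lep. For Nnat they ranked 9, 14, 18, 19 and 20. Because Nnat is imprinted, its levels are also given by the line named second in the label, although the labels do not say which line was the sire. The 3 strains with CC002/UncJ second had adjusted means of 4.15 to 9.05 CPM of Nnat, the 4 with CC042/GeniUncJ second 1.88 to 4.38, the 2 with CC019/TauUncJ second 1.597 and 3.06, and the 2 with CC060/UncJ second 4.18 and 4.50. The 2 with CC075/UncJ second had 3.09 and 9.26, nearly the whole range of the strains. The 2 strains with CC002/UncJ first had 5.72 and 9.26. The ranks of the CC002/UncJ strains were picked out after the values were seen, and none of these ranges was tested, and strains that share a line share its genome.

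The diet comparison in animals given metformin asked whether the difference was there in samples that the choice of genes did not use. Lep and Nnat were both higher on 44% fat. On the log2 scale they rose by 0.95 ± 0.12 (SE, adjusted p = 8.7e-11) for Lep and 1.14 ± 0.13 (adjusted p = 7.7e-14) for Nnat, by edgeR's quasi-likelihood F test, over 234 treated animals. Of 16418 genes, 12.1% were called, with 5.27% higher on 44% fat, and from the highest fold change down Nnat was in place 5 and Lep in place 9. Without the male with the highest fat cell sum, the fold changes were 1.10 ± 0.10 and 1.28 ± 0.11. Fat cell content and level per fat cell cannot be told apart in RNA of whole muscle, where fewer cells of a type and less RNA per cell look the same. The summed level of the 15 fat cell genes in treated females ran from 107.6 to 1149 CPM on 10% fat with a median of 284, and from 142 to 767 on 44% fat with a median of 269. In treated males it ran from 97.98 to 2508 with a median of 181, and from 116.008 to 529 with a median of 192. With the mean log2 CPM of the 15 genes as a covariate the fold changes were 1.10 ± 0.09 and 1.25 ± 0.11, and both calls held.

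Within strains given metformin, both genes had a positive mean difference in 20 of 20 strains, and the share of all genes with this is not given. The differences ran from 0.02 to 3.05 log2 units for Lep and from 0.21 to 2.98 for Nnat. These are means over the sexes, except in (CC004/TauUncJ x CC019/TauUncJ)F1, where only males gave a difference (1.20 for Lep and 2.95 for Nnat). Over all treated animals of that strain, as tested below, the difference was 0.85 and 1.71. An exact permutation test in each strain (two-sided, adjusted over 20 strains for each gene) pooled the sexes, and the share of all genes passing it is not given. By this test Lep was higher on 44% fat in 8 strains and Nnat in 9, with or without the male with the highest fat cell sum. In the strain of that male the difference was 0.07 for Lep and 0.43 for Nnat, and without it 1.00 (exact p = 0.0303, adjusted p = 0.0551) and 1.39 (exact p = 0.0433, adjusted p = 0.0758). The highest difference for both was in (CC001/UncJ x CC042/GeniUncJ)F1, where Lep ran from 0.533 to 10.53 CPM on 10% fat and from 13.9 to 20.4 on 44% fat (exact p = 0.00216, adjusted p = 0.0216). Nnat in these animals ran from 0.317 to 6.43 CPM and from 5.49 to 17.9 (exact p = 0.00433, adjusted p = 0.0144). All 6 animals on 44% fat lay above all 6 on 10% fat for Lep, and 5 of 6 did for Nnat. In (CC009/UncJ x CC013/GeniUncJ)F1, where untreated animals showed no difference, treated animals had 2.75 to 17.1 CPM of Lep on 10% fat and 11.9 to 52.01 on 44% fat (exact p = 0.00649, adjusted p = 0.026). Nnat there was 1.49 to 5.49 CPM on 10% fat and 6.52 to 13.04 on 44% fat (exact p = 0.00216, adjusted p = 0.0126).

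Some strains showed 1 gene apart between the diets and not the other. In (CC024/GeniUncJ x CC002/UncJ)F1 given metformin, Nnat was 0.486 to 1.32 CPM on 10% fat and 1.80 to 7.64 on 44% fat, without overlap (exact p = 0.00216, adjusted p = 0.0126). Lep in the same animals was 2.73 to 10.2 CPM and 4.49 to 9.30 (exact p = 0.0455, adjusted p = 0.0826). In (CC002/UncJ x CC075/UncJ)F1 it was Lep that was called, at 3.35 to 4.46 CPM against 4.31 to 30.8 (exact p = 0.00649, adjusted p = 0.026), while Nnat was 2.52 to 6.67 against 1.71 to 15.7 (exact p = 0.556, adjusted p = 0.618). Whether the difference between the genes is itself beyond the spread was not tested, and the share of all genes without overlap is not given. The differences nearest 0 were in (CC043/GeniUncJ x CC011/UncJ)F1, with Lep at 1.33 to 3.39 CPM on 10% fat and 0.798 to 3.28 on 44% fat (exact p = 0.952), and Nnat at 1.603 to 2.91 and 0.953 to 6.59 (exact p = 0.649). In (CC004/TauUncJ x CC019/TauUncJ)F1, with 3 and 4 treated animals, no exact p below 0.05 can be reached.

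The strains' differences in treated animals were also set against those in untreated animals, as a description. For Lep they were nearly unrelated (r = 0.06, rho = 0.07 over 20 strains), and for Nnat they went together more (r = 0.53, rho = 0.62, and 0.46 and 0.58 without the male with the highest fat cell sum). Between the genes, the treated differences had r = 0.51 (permutation p = 0.0195) and rho = 0.49 (permutation p = 0.0311). Without the 2 strains farthest from the median of Lep, r was 0.23, so the relation rests on those strains. Leaving out that male, r was 0.46 (permutation p = 0.0392), rho was 0.43 (permutation p = 0.0619), and r was 0.083 without the 2 farthest strains. These permutations treat strains as independent, although several share a parental line.

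**Figure D3:**
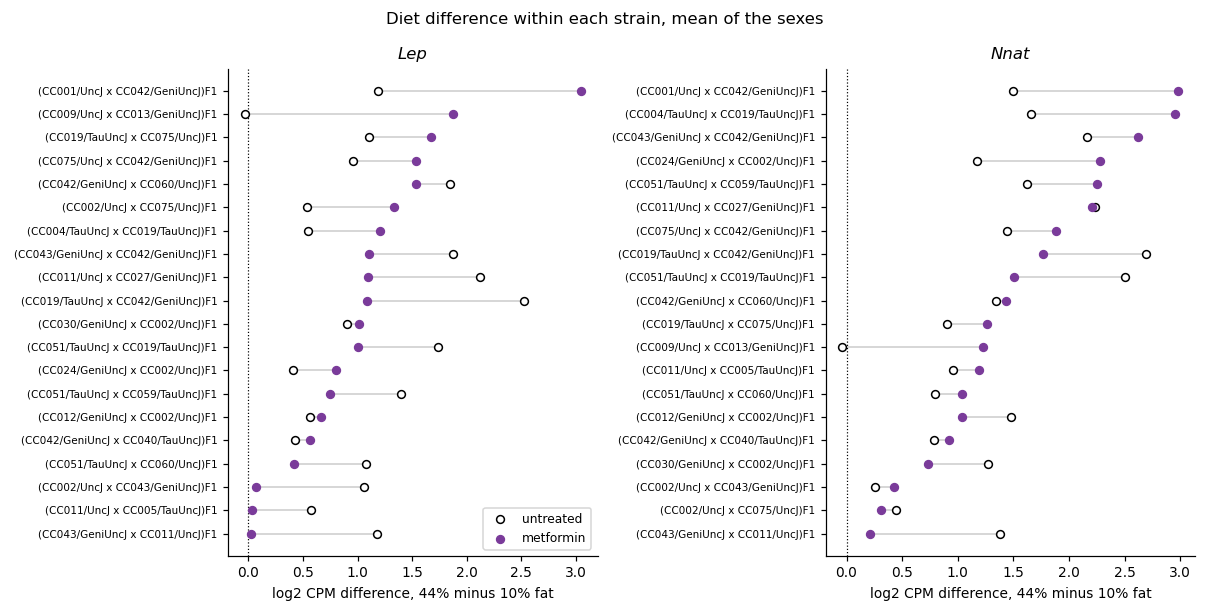
Difference in mean log2 CPM between 44% and 10% fat within each strain, averaged over the sexes, for Lep (left) and Nnat (right). The filled points of (CC004/TauUncJ x CC019/TauUncJ)F1, at 1.20 and 2.95, are of males alone, as females gave no difference there. Filled points are animals given metformin, open points untreated animals, and strains are in the order of the treated difference. Filled points lie between 0.02 and 3.05 for Lep and between 0.21 and 2.98 for Nnat.

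The interaction of diet with strain was called in treated animals for both genes (edgeR, adjusted p = 0.0054 for Lep and 0.0076 for Nnat, background 9.20%), but the calls were lost without 1 library. With that library in, limma voom called it for Nnat (adjusted p = 0.013) and not for Lep (adjusted p = 0.34). Without the male of (CC002/UncJ x CC043/GeniUncJ)F1 with 100.9 CPM of Lep, the adjusted p of edgeR was 0.15 for Lep and 0.11 for Nnat. The share of all genes called in that fit is not given. In that strain the other 5 treated animals on 10% fat had at most 3.72 CPM of Lep and 4.07 CPM of Nnat, and the 6 on 44% fat had 2.66 to 9.95 CPM of Lep and 1.85 to 9.38 CPM of Nnat.

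The sexes were compared in untreated animals. Nnat was higher in males, by 0.61 ± 0.09 on the log2 scale (SE, adjusted p = 3.4e-11), and Lep was higher by 0.25 ± 0.08 (adjusted p = 0.0049), by edgeR's quasi-likelihood F test with 236 females and 233 males. Of the 16384 genes tested, 67.1% passed this test, 30.1% as higher in males and 37% as lower. Scaled by library totals, both stayed higher in males, Lep by 0.18 ± 0.08 (adjusted p = 0.048) and Nnat by 0.55 ± 0.09. Lep was not called in the lower identifier range alone (0.17 ± 0.09, adjusted p = 0.094) or in animals given metformin (0.17 ± 0.12, adjusted p = 0.23), and Nnat was called in the latter (0.54 ± 0.13, adjusted p = 1.1e-04), where 53.2% of genes were. The treated values moved with 1 library: without the male with the highest fat cell sum they were 0.01 ± 0.10 for Lep (adjusted p = 0.94) and 0.39 ± 0.11 for Nnat (adjusted p = 0.0012). Without the untreated libraries at odds with their labelled sex or strain, the difference was 0.26 ± 0.08 for Lep and 0.62 ± 0.09 for Nnat. Fat cell markers went the other way: of the 15 fat cell genes, 14 were called lower in males and 1, Aqp7, a glycerol channel, higher, with a median of -0.44 where the median of all genes was -0.02. Adipoq, which encodes the fat cell hormone adiponectin, fell by 0.47 ± 0.06 on the log2 scale (adjusted p = 3.1e-12). With the 15 genes as a covariate, the sex difference was 0.78 ± 0.07 for Lep and 0.99 ± 0.09 for Nnat, both called.

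The sexes were also compared within each diet, and the called differences lay on 10% fat for Nnat and on 44% fat for Lep. On 10% fat, Nnat was 2.43-fold higher in males (log2 fold change 1.28 ± 0.13, adjusted p = 1.1e-18), and Lep differed by 0.01 ± 0.10 (adjusted p = 0.94). On 44% fat, Nnat differed by 0.08 ± 0.10 (adjusted p = 0.51), and Lep was 1.34-fold higher in males (0.42 ± 0.12, adjusted p = 0.001). Background shares were 58.4% on 10% fat and 54.7% on 44% fat. In animals given metformin the values were, for Nnat, 0.86 ± 0.21 on 10% fat (adjusted p = 5.2e-04) and 0.18 ± 0.12 on 44% fat (adjusted p = 0.24), and for Lep, -0.29 ± 0.19 (adjusted p = 0.22) and 0.33 ± 0.13 (adjusted p = 0.031), with background shares of 44.3% and 39.4%. With the male with the highest fat cell sum left out, which was on 10% fat, Lep there was called lower in males (-0.48 ± 0.14, adjusted p = 0.003), and Nnat was at 0.64 ± 0.18 (adjusted p = 0.0021). In untreated animals the change of the sex difference with diet was not tested, because the diet contrast there chose the genes.

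**Figure D4:**
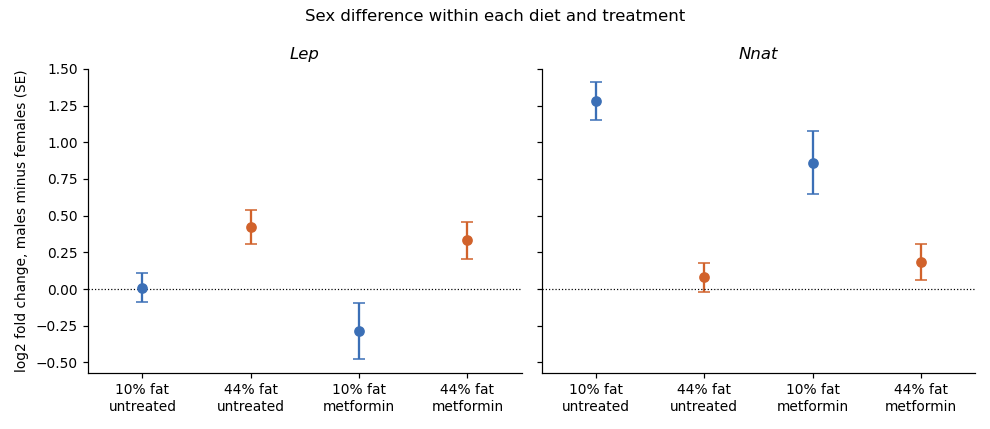
Log2 fold change of males over females with its SE, for Lep (left) and Nnat (right), within each diet and treatment, from edgeR fits of those animals alone. Nnat lies at 1.28 and 0.86 on 10% fat and at 0.08 and 0.18 on 44% fat.

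In treated animals, where it could be tested, the interaction of diet with sex was -0.76 ± 0.25 for Nnat (adjusted p = 0.16) and 0.55 ± 0.24 for Lep (adjusted p = 0.41). Neither was called, where 0.962% of 16418 genes were. Without the male with the highest fat cell sum, Lep was called at 0.82 ± 0.20 (adjusted p = 0.0052) and Nnat was at -0.50 ± 0.22 (adjusted p = 0.33). Within the sexes, the treated diet difference was 0.74 ± 0.12 for Lep and 1.58 ± 0.16 for Nnat in females (adjusted p = 6.0e-06 and 4.7e-14), and 1.34 ± 0.20 and 0.91 ± 0.19 in males (adjusted p = 2.1e-07 and 3.5e-04), where 8.90% of genes were called in females and 5.34% in males. Without that male the differences in males were 1.52 ± 0.14 for Lep and 1.11 ± 0.14 for Nnat. In untreated animals the same values, which belong to the choice of the genes, were 0.97 ± 0.10 and 1.83 ± 0.11 in females and 1.35 ± 0.12 and 0.60 ± 0.12 in males. Strain by strain, Nnat in females was higher on 44% fat in 20 of 20 strains untreated and 19 of 19 treated. In males it was higher in 17 of 20 and 17 of 20, or 18 of 20 treated without that male. Lep was higher in females in 19 of 20 strains untreated and 17 of 19 treated. In males Lep was higher in 19 of 20 and 19 of 20, or 20 of 20 treated without that male. The untreated counts belong to the choice of the genes, and the shares of all genes are not given.

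Metformin was compared with no treatment over all animals, with diet, sex, strain and identifier range in the model. Lep fell by 0.29 ± 0.08 on the log2 scale (adjusted p = 0.0032) and Nnat fell by 0.24 ± 0.08 (adjusted p = 0.024), by edgeR's quasi-likelihood F test, where 19.4% of 17740 genes were called. Without the male with the highest fat cell sum, Lep fell by 0.40 ± 0.08 and Nnat fell by 0.35 ± 0.08. Fat cell genes moved with them: 5 of 15 were called, all lower, with a median of -0.14 against -0.00 for all genes. With the 15 genes as a covariate, Lep fell by 0.19 ± 0.06 (adjusted p = 0.018) and Nnat was at -0.16 ± 0.07 (adjusted p = 0.12). In the upper identifier range alone neither was called (-0.12 ± 0.13, adjusted p = 0.91, and -0.26 ± 0.14, adjusted p = 0.80), where 1 of 17683 genes was called, and in the lower range alone Nnat was not (-0.24 ± 0.10, adjusted p = 0.065).

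The interaction of metformin with sex was not called for Lep (-0.04 ± 0.15, adjusted p = 0.91) or Nnat (-0.02 ± 0.16, adjusted p = 0.96), with 3.12% of genes called. Leaving out the male with the highest fat cell sum, these were -0.20 ± 0.14 (adjusted p = 0.42) and -0.20 ± 0.15 (adjusted p = 0.47). The interaction of metformin with strain was called, with an adjusted p of 5.6e-04 for Lep and 4.3e-04 for Nnat (edgeR F test), where 11.6% of 17740 genes were called. Without the male with the highest fat cell sum these were 2.1e-04 and 0.0017. Limma voom did not call either (adjusted p = 0.096 and 0.18). The diet differences of treated and untreated animals stand side by side above, and their difference was not tested because the untreated contrast chose the genes.

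Lep and Nnat followed each other from animal to animal within the groups. After strain, sex, diet, treatment and identifier range were taken out of the log2 CPM values, Pearson's r over 703 libraries was 0.61 and Spearman's rho 0.56 (permutation p = 1.0e-05 for each, the smallest that 100000 permutations can give, and 1.1e-05 after adjustment over 15 relations). Without the 2 libraries with the most extreme Lep values r was 0.58. It was 0.63 in the lower identifier range, 0.49 in the upper, 0.59 in untreated and 0.60 in treated animals. In the 8 groups of sex, diet and treatment it ran from 0.44 to 0.85, the highest being treated males on 10% fat, at 0.71 without the male with the highest fat cell sum. Over 20 strains, the adjusted means of the genes in untreated animals had r = 0.83 and rho = 0.83 (permutation p = 1.0e-05 and 2.0e-05), and r = 0.79 in treated animals. The permutation treats strains as independent, although several share a parental line, so its p does not allow for that.

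Both genes followed fat cell transcripts. With the fat cell index, the mean log2 CPM of 15 fat cell genes, Lep had r = 0.66 and rho = 0.62, and Nnat r = 0.47 and rho = 0.42 (permutation p = 1.0e-05 for each, adjusted 1.1e-05). Without the 2 most extreme libraries r was 0.64 and 0.43. The relation of Nnat was weaker in the upper identifier range, at r = 0.32 and rho = 0.30 (permutation p = 5.0e-05 and 1.5e-04), against 0.49 in the lower range. Within the 8 groups r with the index ran from 0.58 to 0.79 for Lep and from 0.29 to 0.80 for Nnat, and the order of the genes was not the same in each: in treated males on 44% fat it was 0.63 for Lep and 0.80 for Nnat. In treated males on 10% fat it was 0.79 and 0.72, and 0.33 and 0.39 without the male with the highest fat cell sum. The difference between the genes was not tested. Of the 15 genes, 14 had a higher r with Lep than with Nnat. Taking the index out of both genes left r = 0.45 and rho = 0.43 between them (permutation p = 1.0e-05 for each), with 0.47 in the lower identifier range and 0.40 in the upper.

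**Figure D5:**
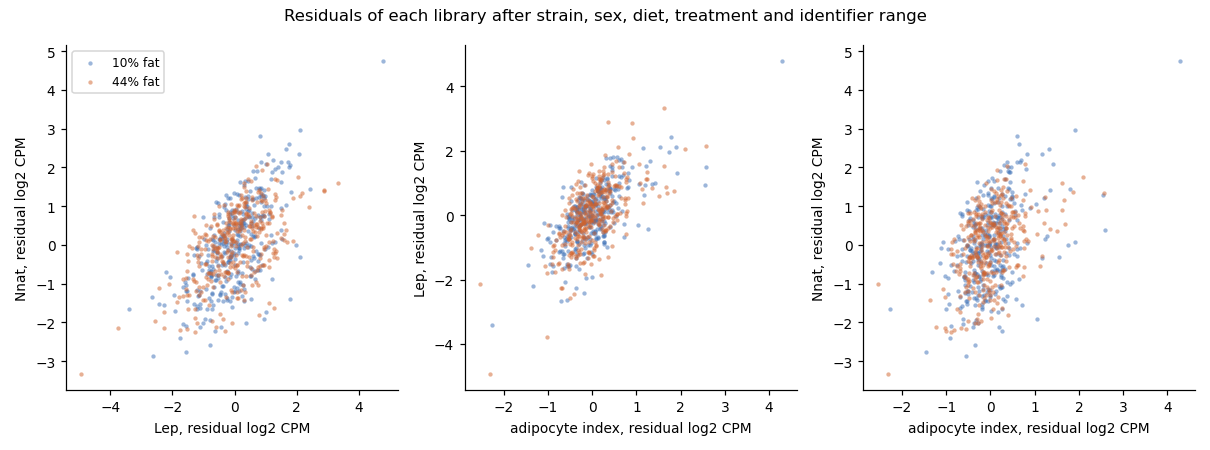
Residual log2 CPM of each of 703 libraries after strain, sex, diet, treatment and identifier range: Nnat against Lep (left), Lep against the fat cell index (middle) and Nnat against the index (right), coloured by diet. Pearson's r is 0.61, 0.66 and 0.47. The lone point at the upper right of each panel is the library with 100.9 CPM of Lep.

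The genes most like Lep by this r, among 11283 named genes of at least 1 CPM, were Npr3, a clearance receptor for natriuretic peptides (0.81), Aoc3, an amine oxidase of fat cells (0.77), Fads3 (0.76), Sncg (0.76), Tenm4 (0.75), Plin1, which coats lipid droplets (0.75), Cidec, which enlarges them (0.75), Tusc5 (0.74), Adipoq (0.74) and Tshr (0.72). Nnat was in place 32. Those most like Nnat were Sncg, gamma-synuclein (0.62), Lep (0.61), Npr3 (0.59), Ccdc80 (0.58), Glb1l2 (0.57), Aoc3 (0.57), Apcdd1 (0.54), Lgals12, a galectin of fat cells (0.54), C4b (0.53) and Adipoq (0.52). Sncg, Npr3, Aoc3 and Adipoq stood in both lists. The r of all 11283 genes had a median of 0.16 with Lep and 0.11 with Nnat, and all points share their libraries.

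Genes around the members were counted in the treated diet comparison, list by list, beside the 5.27% of all genes called higher and 6.79% called lower. The lists were chosen with earlier results of these data known, so their counts are descriptions. Of the 15 fat cell genes, 1 was called higher (Aqp7, 0.18 ± 0.04) and 5 lower, with a median of -0.01, the median of all genes. Those lower were Retn, resistin (-0.81 ± 0.11), Adrb3, the fat cell adrenergic receptor (-0.74 ± 0.16), Cfd, adipsin (-0.63 ± 0.09), Adig (-0.29 ± 0.09) and Cebpa (-0.22 ± 0.08). Adipoq was at -0.00 ± 0.08, Plin1 at -0.01 ± 0.09 and Cidec at 0.13 ± 0.11, and none of these was called. Without the male with the highest fat cell sum the list had 5 called higher and 4 lower, with a median of 0.09, and the share of all genes called in that fit is not given. In untreated animals 8 of the 15 were called higher and 2 lower, with a median of 0.15, beside 10.1% of all genes called higher and 10.1% lower there. Lep at 0.95 and Nnat at 1.14 lay above all 15, of which Pck1 was highest at 0.27 ± 0.14.

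Of 6 genes known to follow the growth of fat depots, 5 were called in treated animals, beside 5.27% of all genes called higher. All 5 were higher on 44% fat, and the list had a median of 0.20. Npr3 also stands above at the edge of the rule and as the gene most like Lep. Npr3 had 0.68 ± 0.08 (adjusted p = 1.1e-13), Mest, an imprinted gene of growing fat cells, 0.60 ± 0.09 (adjusted p = 3.0e-08), and Bmp3 and Sfrp5, an inhibitor of Wnt signals, 0.20 ± 0.05 each (adjusted p = 0.0042 and 0.003). Cav1, a coat protein of caveolae, rose by 0.09 ± 0.03, and Cav2 was at 0.09 ± 0.04 (adjusted p = 0.10). All 6 were called without the male with the highest fat cell sum. Of 4 brown fat genes tested, 2 were called lower in treated animals, Ucp1, the uncoupling protein of brown fat (-2.02 ± 0.42, adjusted p = 1.4e-04), and Otop1 (-0.64 ± 0.17, adjusted p = 0.004), while Cidea was at -0.31 ± 0.23 and Cox8b at -0.04 ± 0.03. In untreated animals the diet values of the 5 listed brown fat genes were all above 0, with a median of 0.28, and Ucp1 was at 0.28 ± 0.28, not called.

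Of 13 genes of leptin receptor signalling, 1 was called in treated animals, as lower, with a median of -0.02. The receptor Lepr was at 0.01 ± 0.04 (adjusted p = 0.92). Socs3, the feedback inhibitor, fell by 0.26 ± 0.09 (adjusted p = 0.046), and without the male with the highest fat cell sum no member of the list was called. Cish, a related inhibitor, was at -0.22 ± 0.17, Stat5a at 0.06 ± 0.03 and Leprotl1 at -0.05 ± 0.02, none of them called. In untreated animals 5 of the 13 were called in the diet contrast, each lower on 44% fat, among them Cish (-0.66 ± 0.12) and Socs3 (-0.32 ± 0.07), beside 10.1% of all genes called lower. Between the sexes of untreated animals 8 of the 13 were called higher in males and 4 lower, where 67.1% of all genes were called, and Cish was at 1.45 ± 0.12. In these animals Lepr was lower in males, at -0.52 ± 0.04 on the log2 scale (adjusted p = 6.7e-39).

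Genes linked to neuronatin were also given. Blcap, the gene that Nnat lies inside, was at 0.03 ± 0.02 for diet in treated animals (adjusted p = 0.26), at 0.01 ± 0.01 for sex (adjusted p = 0.71) and at 0.02 ± 0.01 for metformin (adjusted p = 0.15), and its r with Nnat across libraries was 0.19. Of 6 genes of the calcium pump and its regulators tested, 2 were called higher on 44% fat, Atp2a2 (0.15 ± 0.03, adjusted p = 4.2e-04) and Atp2a3 (0.11 ± 0.03, adjusted p = 0.0078). Pln, phospholamban, was at 0.06 ± 0.06, and Sln, sarcolipin, at 0.19 ± 0.12. Of the 5 subunits of the signal peptidase complex, which neuronatin has been reported to bind, 3 were called lower, Sec11c (-0.09 ± 0.02), Spcs2 (-0.08 ± 0.02) and Spcs1 (-0.06 ± 0.02), and Sec11a was at -0.04 ± 0.02.

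Markers of other cells that a muscle sample can hold were set beside these. Of 8 peripheral nerve genes tested, edgeR and DESeq2 called 0 and limma voom 1, and 1 had an unadjusted p under 0.05, in the treated diet comparison, with a median of -0.01, and Stmn2 was furthest from 0 at 0.12 ± 0.05 (adjusted p = 0.076). EdgeR called Stmn2 higher, at 0.14 ± 0.05 (adjusted p = 0.048), once the male with the highest fat cell sum was left out. Of 7 macrophage genes and of 7 liver genes, 0 were called by edgeR, limma voom or DESeq2 and 0 had an unadjusted p under 0.05, with medians of -0.04 and 0.01. Of 5 fibroblast genes 1 was called, Dcn, a matrix proteoglycan (-0.07 ± 0.02), and of 3 endothelial genes 2 were, Cdh5 and Pecam1, junction proteins of vessels (0.09 ± 0.02 and 0.08 ± 0.02). Of 6 muscle genes 1 was called, Myh1, a fast myosin (0.15 ± 0.03). Median r with Lep was 0.18 for the nerve genes, 0.28 for the macrophage genes and 0.01 for the muscle genes, and with Nnat it was 0.23, 0.20 and 0.04.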

How the data were processed

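Polyadenylated RNA of gastrocnemius muscle from 703 mice was sequenced. The authors assigned reads to genes with EMASE against a combined transcriptome of the 8 founder strains and deposited expected counts per gene, whole numbers as deposited, on GRCm38. They also deposited a log2-like table of those counts, variance-stabilised with DESeq2, and whether the batch regression of their methods was applied to it is not stated. Strand use is not stated.

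Groups came from the labels. Counts were scaled by TMM, filtered with filterByExpr and fitted over all genes with edgeR 4.0.16 (R 4.3.3), using quasi-likelihood F tests with strain, sex, diet and identifier range as terms and Benjamini-Hochberg adjustment, called at 0.05. Identifier ranges are runs of sample numbers and are not named as batches by the labels. Levels are CPM, counts scaled to a common library total. Correlations and variance shares used log2 CPM with a prior count of 2, with 100000 permutations in SciPy 1.17.1. Alternatives used limma 3.58.1 and DESeq2 1.42.0. On simulated counts for the treated diet fit (16325 genes), 98.0% to 100% of genes changed by 0.585 or 1 on the log2 scale were called, and 0.093% of unchanged genes.

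The members and the 13 gene lists (88 of 90 genes in the table) were chosen with earlier results of these data known. Beside Lep and Nnat, the text names Adipoq, Plin1, Cidec, Lepr, Blcap, up to 4 members of each list with the largest treated diet change, the 10 genes most like each member, and genes at the edge of the rule. Aqp7, Cebpa, Pck1, Cav1 and Cav2 fall outside this and were named after their values were seen. No libraries were identical among 1404 pairs compared. That animals are separate is given by the labels.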

Additional observations from a re-analysis of the deposited data

Results flagged for a closer look

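A lone extreme value was looked for, gene by gene, in sets of 4 to 10 animals of 1 strain, diet and treatment. Of 82 such tests, 7 passed the 95% limit, where chance passes about 1 in 20. Untreated animals entered these tests in 1 strain only, as their other sets held 11 to 14 animals. Nearly all tests were thus of animals given metformin, so where the flags fall does not compare the treatments. The measure was Dixon's ratio of the gap to the range, taken on log2 CPM, while the levels beside it are in CPM. In (CC002/UncJ x CC043/GeniUncJ)F1 on 10% fat with metformin, 1 male had 100.9 CPM of Lep against 3.72 CPM in the next animal (ratio 0.804) and 86.1 CPM of Nnat against 4.07 (ratio 0.641). The same library had the highest fat cell sum of the series, and its part in the levels was not tested. In (CC030/GeniUncJ x CC002/UncJ)F1 on 10% fat with metformin the lowest Lep value was 2.25 CPM and the next 4.67 (ratio 0.634). In (CC043/GeniUncJ x CC042/GeniUncJ)F1 on 44% fat with metformin the lowest Lep value was 2.38 CPM and the next 8.04 (ratio 0.698). For Nnat, (CC019/TauUncJ x CC075/UncJ)F1 with metformin had a lone low animal on 10% fat, at 0.431 CPM against 3.23 (ratio 0.663), and a lone high one on 44% fat, at 13.8 CPM against 7.53 (ratio 0.865). In (CC024/GeniUncJ x CC002/UncJ)F1 on 44% fat with metformin the lowest Nnat value was 1.80 CPM and the next 4.54 (ratio 0.637).

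The contrast of metformin with no treatment, which cannot be told apart from age, differed between strains by an interaction test (edgeR, adjusted p = 5.6e-04 for Lep and 4.3e-04 for Nnat). Limma voom did not call it (adjusted p = 0.096 and 0.18), nor did edgeR in the upper identifier range alone (adjusted p = 0.67 and 0.79). The diet difference in treated animals also differed between strains (edgeR, adjusted p = 0.0054 for Lep and 0.0076 for Nnat). That interaction was not called without the library with 100.9 CPM of Lep (adjusted p = 0.15 and 0.11).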

How the results depend on the processing

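Of 227 alternatives over 24 results, 193 kept the direction and the side of the threshold, 24 lost a call, 3 gained one and 7 turned the direction. The treated diet difference was called under all 17 alternatives for each gene, from 0.63 to 1.52 for Lep and 0.69 to 1.58 for Nnat, the lowest on the variance-stabilised scale.

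In the lower identifier range alone, the sex difference of Lep was 0.17, metformin on Nnat -0.24, metformin by sex 0.12 for Lep and 0.089 for Nnat, and diet by sex for Lep -0.066. In the upper range alone, the adjusted p of strain was 0.092 for Nnat, metformin was -0.12 for Lep and -0.26 for Nnat, and adjusted p was 0.67 and 0.79 for metformin by strain and 0.54 and 0.56 for diet by strain (Lep and Nnat, edgeR). With the fat cell index as a covariate, metformin on Nnat was -0.16, metformin by sex for Lep 0.0024, metformin by strain for Nnat had an adjusted p of 0.11, and diet by sex for Nnat was called at -0.79. With Adipoq as a covariate metformin on Nnat was -0.16. Without libraries against their labels, metformin by sex for Nnat was 0.0042. Limma voom gave adjusted p = 0.096 and 0.18 for metformin by strain (Lep and Nnat) and 0.34 for diet by strain (Lep). Treated animals in place of untreated gave a sex difference of Lep of 0.17.

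Chosen after seeing the data were the splits by diet and sex, library totals in place of TMM and the fit without the library highest in fat cell transcripts. On 10% fat alone the sex difference of Lep was 0.0097, and in treated animals -0.29, or -0.48 and called without that library. On 44% fat alone that of Nnat was 0.079, and in treated animals 0.33 for Lep and 0.18 for Nnat. Metformin was -0.27 for Nnat in females, and in males -0.28 for Lep and -0.23 for Nnat, and there -0.48 and -0.41 without that library, both called. Without that library diet by sex for Lep was called at 0.82, and diet by strain had adjusted p = 0.15 for Lep and 0.11 for Nnat (edgeR). Library totals changed no call. The causes were not tested.

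No paired analysis was possible because every label carries the same replicate number. With a lowest count of 5 and a median of 205 Nnat has a larger counting error than Lep, with 13 and 281.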
